A study of Mus musculus with 25 samples.

Results

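Sox genes encode transcription factors that bind DNA through a shared domain, the HMG box. The 7 genes described here, Sox4, Sox5, Sox6, Sox8, Sox9, Sox11 and Sox12, are the Sox genes of the mesenchyme, the loose connective tissue that fills the palatal shelves. They were chosen by symbol, and they are 7 of the 37091 gene symbols and 8 of the 37406 table rows, since Sox5 has 2 rows. In all, 20 Sox symbols were listed.

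The study profiled wild type palates of CD1 mouse embryos at E14.5, mid-gestation, by RNA-seq of laser captured tissue, to give each region of the forming palate its own expression profile. Anterior and posterior palate were each cut into a medial and a lateral compartment, and in separate captures into an oral and a nasal compartment, so the medial-lateral and oral-nasal divisions partly cover the same tissue. There were 3 libraries for each of the 8 compartments except anterior nasal, which had 4, for a total of 25 libraries (13 anterior and 12 posterior). All groups shared strain, stage and genotype, no treatment is named, and the labels do not say how many embryos were pooled into a library.

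In mesenchyme the Sox genes work in groups. The SoxE gene Sox9 is required for cartilage formation, and the SoxD factors Sox5 and Sox6, which have no activation domain of their own, bind beside it on cartilage matrix genes such as Col2a1 and Acan. The SoxC genes Sox4, Sox11 and Sox12 are active in many progenitor cells, and loss of Sox9, Sox5 or Sox11 in mice is known to leave the palate cleft. Sox8 is a SoxE gene like Sox9. The HMG box shows the grouping at sequence level. Over its 71 codons the encoded residues were identical at 87.3% to 98.6% within the SoxC, SoxD and SoxE groups (5 pairs) and at 47.9% to 64.8% between groups (16 pairs). A stretch of 27 bases, 9 codons near the start of the box, is shown for each gene from the GENCODE M21 transcripts, 5′ to 3′, because 21 of its bases were the same in all 7 genes. Capitals mark those shared bases.
Sox9 (SoxE): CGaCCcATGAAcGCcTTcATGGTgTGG
Sox8 (SoxE): CGgCCcATGAAtGCcTTcATGGTgTGG
Sox5 (SoxD): CGtCCaATGAAtGCcTTcATGGTgTGG
Sox6 (SoxD): CGaCCaATGAAtGCgTTcATGGTtTGG
Sox4 (SoxC): CGgCCcATGAAcGCcTTtATGGTgTGG
Sox11 (SoxC): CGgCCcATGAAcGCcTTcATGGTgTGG
Sox12 (SoxC): CGgCCgATGAAcGCgTTcATGGTgTGG

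In the mm9 build of the files, Sox9 (Entrez ID 20682) lies at chr11:112643524-112649071, Sox8 (20681) at chr17:25702838-25707631, Sox6 (20679) at chr7:122614858-123182258, Sox4 (20677) at chr13:29042599-29045551, Sox11 (20666) at chr12:28019133-28027583 and Sox12 (20667) at chr2:152219348-152223782. Sox5 (20678) was split. Its row 1 covers chr6:143777067-143779600, a single stretch, and its row 2 covers chr6:143781349-144730497. The rows were kept apart.

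Levels are given in RPKM, read counts scaled by gene length and library size, which allows genes to be compared per length. Steps in the RPKM of short single-stretch rows gave a depth of 1639442 to 6555726 counted reads per library (median 3268892). A total of 2 libraries stood apart. Posterior medial replicate 2 had a median correlation of 0.66 with the other libraries and anterior oral replicate 1 one of 0.72, against 0.78 to 0.89 for the other 23. Posterior medial replicate 2 also held 34.1 RPKM of Sox2 and 20.5 RPKM of Sox21, where no other library exceeded 3.11 and 1.89. The alignment names of 6 libraries, namely anterior oral replicate 3, anterior nasal replicate 4 and replicate 1 of every posterior compartment, carry ERK2 or Tgfbr2 beside WT, although their labels give CD1 wild type like the rest. Anterior lateral shared no sequencing run with anterior medial, nor posterior lateral with posterior medial. Summed RPKM of 7 mesenchyme markers, Twist1, Prrx1 and Pdgfra among them, was 633 to 1351 in all 25 libraries. The sum also held Col1a1, which averaged 150 RPKM in anterior and 211 RPKM in posterior libraries. It does not show that every marker was present in every library. Tissue pieces hold several cell types, and fewer cells of a type cannot be told apart from less RNA per cell.

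Sox11 had the highest mean level of the 7 genes, 48.6 RPKM over the 25 libraries, above 94.8% of all rows with any signal. Sox9 followed at 39.2 RPKM (92.7%), then Sox12 at 25.2 RPKM (85.7%) and Sox4 at 14.9 RPKM (74.4%). Sox5 averaged 11.5 RPKM in row 1 and 7.06 RPKM in row 2, Sox6 averaged 5.998 RPKM and Sox8 averaged 0.850 RPKM. The order of means says little of how steady a gene was. The highest compartment mean was 34.3 times the lowest for Sox6, 7.76 times for Sox8, 7.01 and 6.57 times for the Sox5 rows and 5.27 times for Sox9, but 1.80, 1.75 and 1.57 times for Sox4, Sox12 and Sox11. The lowest means of Sox6 (0.777 RPKM, posterior medial) and Sox8 (0.244 RPKM, anterior medial) were near 0. Each held a library at 0, so the ratios of these genes are unstable. A moderated F test in limma across the 8 compartments, with Benjamini-Hochberg adjustment over 11913 rows, called Sox9 (adjusted p = 0.000802), Sox6 (0.00482) and both Sox5 rows (0.0266 and 0.0324), and it did not call Sox11 (0.723), Sox12 (0.871) or Sox4 (0.889). It called 4.42% of all rows tested. Called means an adjusted p under 0.05 throughout, and Sox8 never reached the minimum level of 5 RPKM for testing.

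**Figure D1:**
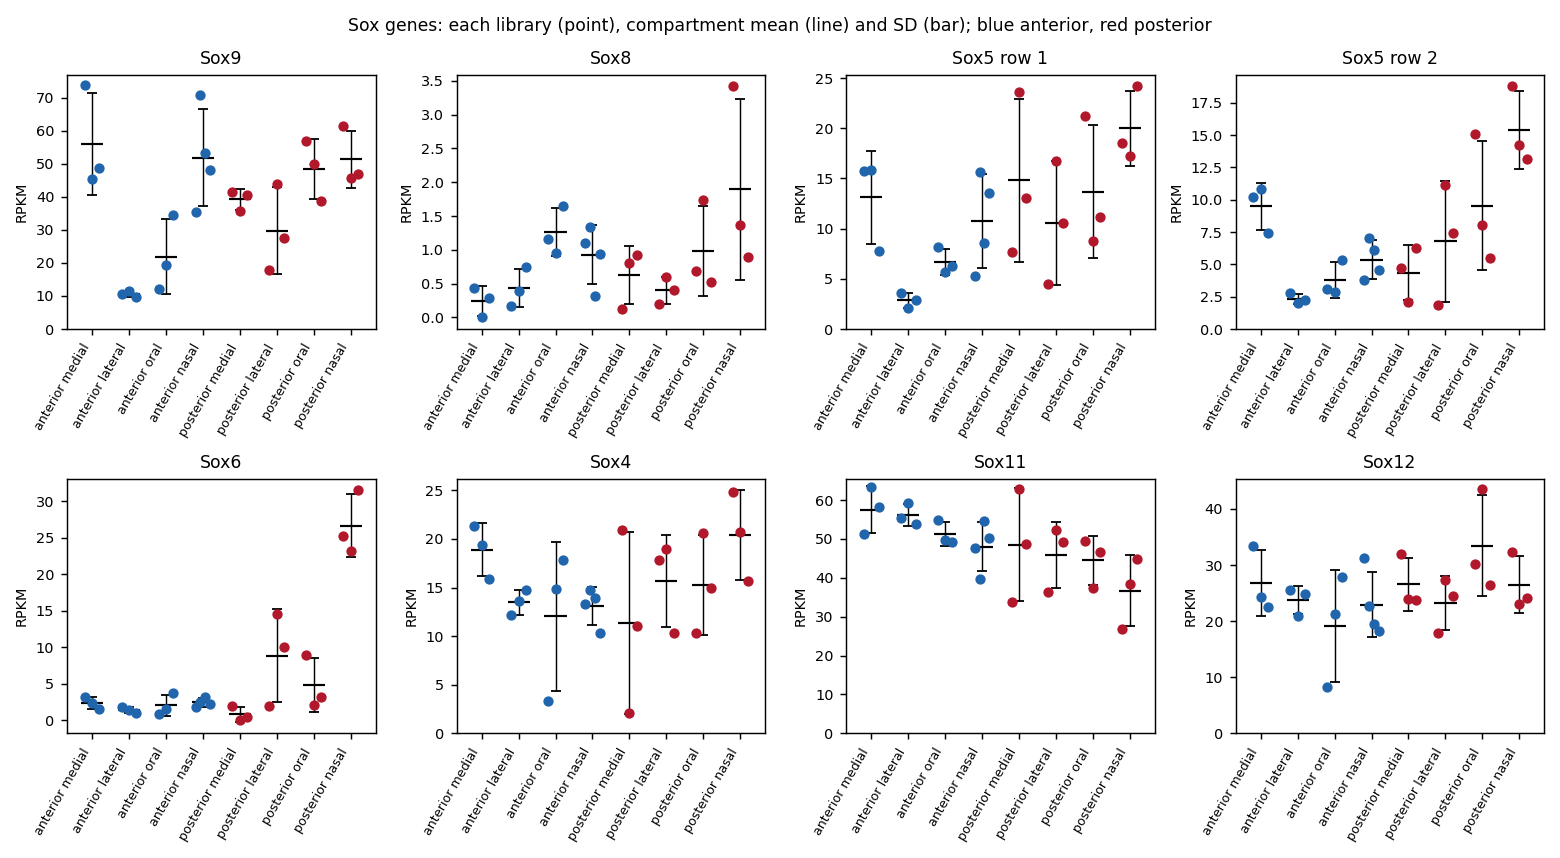
RPKM of each Sox row (vertical axis, linear) in the 8 compartments (horizontal axis); points are libraries, horizontal lines are compartment means and bars are SD, blue anterior and red posterior. Sox9 was lowest in the 3 anterior lateral libraries (9.64 to 11.6 RPKM) and Sox6 highest in the 3 posterior nasal libraries (23.2 to 31.5 RPKM), while the Sox11 points of all compartments lay between 26.8 and 63.3 RPKM.

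Sox9, the cartilage regulator, was low in anterior lateral palate and high in anterior medial palate. Its 3 anterior medial libraries held 73.8, 45.5 and 48.6 RPKM and its 3 anterior lateral libraries held 10.6, 11.6 and 9.64 RPKM. The groups were far from overlapping. Ranked by mean, anterior medial palate was the highest compartment for Sox9 (56.0 ± 15.5 RPKM, SD, n = 3), followed by anterior nasal (51.9 ± 14.6, n = 4), posterior nasal (51.3 ± 8.74, n = 3), posterior oral (48.5 ± 9.11, n = 3), posterior medial (39.3 ± 3.11, n = 3), posterior lateral (29.8 ± 13.1, n = 3), anterior oral (21.9 ± 11.4, n = 3) and anterior lateral (10.6 ± 1.00, n = 3). Among neighbours in that order, only the last pair, anterior oral and anterior lateral, had ranges that did not overlap. Over all 8 rows this held for 4 of 56 neighbouring pairs: anterior oral above anterior lateral for Sox9 and for both Sox5 rows, and posterior nasal above posterior lateral for Sox6. How often neighbouring compartments did not overlap among all rows was not counted.

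Sox5 had the same 2 ends in anterior palate. Row 1 read 15.7, 15.9 and 7.79 RPKM in anterior medial libraries and 3.54, 2.10 and 2.91 RPKM in anterior lateral ones. Row 2 read 10.2, 10.8 and 7.42 RPKM against 2.77, 2.00 and 2.28 RPKM. Every medial value of both rows was above every lateral value. The rows of Sox5 cover separate stretches of the gene, and their correlation over the 8 compartment means was 0.85 on the log2 scale.

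The anterior medial-lateral comparison asks which genes divide the anterior shelf into inner and outer parts. Sox9 was 5.13-fold lower laterally (log2 difference lateral minus medial -2.36, SE 0.20, adjusted p = 0.00216 by limma with Benjamini-Hochberg adjustment over 10427 rows). Sox5 row 2 was 3.90-fold lower (-1.96, SE 0.19, adjusted p = 0.00328 by limma) and row 1 was 4.35-fold lower (-2.12, SE 0.31, adjusted p = 0.0163 by limma). These log2 differences are of RPKM plus 0.1, which shrinks the differences of low genes slightly. In all, 3 of the 6 Sox rows tested were called, beside 2.51% of all rows. Both Sox5 rows reached 5 RPKM in the 3 medial libraries only, so they entered the test through the group where they were high. Sox4 was lower in each lateral library (12.1 to 14.7 RPKM) than in each medial one (15.9 to 21.3 RPKM) but was not called (-0.48, SE 0.15, adjusted p = 0.167 by limma). The groups did not overlap in 21.3% of all rows tested. Sox11 (-0.03, SE 0.12) and Sox12 (-0.15, SE 0.18) differed by less than the spread between libraries, and Sox6, at 1.57 to 3.13 RPKM medially and 1.00 to 1.82 RPKM laterally, was under the minimum.

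Leaving out any single library kept the Sox9 call, with differences from -2.49 to -2.14 and adjusted p from 0.00201 to 0.0172 by limma. Without any of the anterior medial libraries the Sox5 rows fell under the minimum for testing, leaving 1 call. Row 1 also missed the threshold without anterior lateral replicate 2 (adjusted p = 0.0651 by limma) and without replicate 3 (0.0733). With sequencing run as a factor over all 25 libraries the differences were -2.52 for Sox9, -2.84 for Sox5 row 1 and -2.09 for Sox5 row 2, and no row of the table was called. Anterior lateral and anterior medial palate shared no run, so these values are not within-run differences. The adjustment rests on other compartments, such as posterior nasal palate, whose libraries linked the runs.

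Target genes from lists of cartilage matrix, bone and chondrocyte signalling genes were read beside the Sox genes. Of 8 tested cartilage matrix rows, 2 were called in the anterior lateral-medial comparison, both lower laterally: Acan, the aggrecan core protein (1.199 against 7.08 RPKM, log2 difference -2.55, adjusted p = 0.00649 by limma), and Matn4, a matrilin (0.602 against 6.53 RPKM, -3.28, adjusted p = 0.000934 by limma). The median over the list was -0.97, against -0.03 over all rows tested. Of 4 tested bone rows 1 was called, Runx2, the osteoblast regulator (14.6 against 43.3 RPKM, -1.54, adjusted p = 0.0248 by limma), and the bone list's median was 0.10. Of 5 tested signalling rows 1 was called, Pth1r, the parathyroid hormone receptor (-0.62, adjusted p = 0.0465 by limma). Without single libraries the adjusted p by limma was 0.0191 to 0.106 for Runx2 and 0.1002 to 0.188 for Pth1r, so the Pth1r call was lost whichever library was left out. Acan and Matn4 reached 5 RPKM in medial libraries only, so they could be tested only because they were high there. Of the 4 listed SoxC target genes, 1 to 3 were tested in each pair, and none was called there or in the interactions.

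Markers of other cell types also differed in this comparison. Summed RPKM of 5 chondrocyte markers, Col2a1 and Acan among them, was 15.7 to 18.95 laterally and 28.8 to 52.0 medially, and that of 7 endothelial markers was 148 to 164 laterally and 115 to 134 medially. Summed RPKM of 7 Schwann and glial markers was 33.8 to 43.0 laterally and 11.8 to 16.4 medially, 5 neuronal markers summed to 5.18 to 11.04 laterally and 28.5 to 45.4 medially, and 7 epithelial markers summed to 33.8 to 55.04 laterally and 50.3 to 99.2 medially, which overlapped. Of the marker genes, Prph and Krt14 were lower laterally, and Krt8 and the palate mesenchyme gene Osr2 were higher; each of these 4 calls was lost without at least 1 library. The glial SoxE gene Sox10, at 6.66 RPKM laterally and 1.196 RPKM medially, was the only other Sox gene called (log2 difference 2.43, adjusted p = 0.00408 by limma), and it ran opposite to Sox9. Sox10 and Krt8 reached 5 RPKM in lateral libraries only, so they could be tested only because they were high there. The part of these cell types in the Sox values was not tested.

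In posterior palate the medial-lateral step of Sox9 was smaller and noisier. Sox9 read 41.5, 35.7 and 40.6 RPKM in posterior medial libraries and 17.8, 43.8 and 27.7 RPKM in posterior lateral ones. The highest of the 6 values was a lateral one, so the groups overlapped. Sox9 differed by -0.49 (lateral minus medial, log2, SE 0.38) with an adjusted p of 0.957 by limma. None of the 6 Sox rows tested was called, as was true of all 10324 rows (0% called by limma, 159 with an unadjusted P under 0.05). Sox5 row 1 read 7.68, 23.7 and 13.1 RPKM medially and 4.46, 16.8 and 10.5 RPKM laterally, and row 2 read 4.70, 2.06 and 6.27 RPKM medially and 1.82, 11.1 and 7.40 RPKM laterally. Posterior lateral replicate 1 was the lowest posterior lateral library for Sox9, Sox6 and both Sox5 rows. It was sequenced in a run of its own, whereas replicates 2 and 3 shared a run. Epithelial markers summed to 15.1 to 22.01 RPKM laterally and 40.4 to 103.3 RPKM medially, and their part was not tested.

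The difference between the anterior and posterior medial-lateral steps was tested directly. For Sox9 the anterior step exceeded the posterior step by 1.87 on the log2 scale (anterior less posterior -1.87, SE 0.44, unadjusted P = 0.00164, adjusted p = 0.504 by limma), and for Sox5 row 2 the value was -2.39 (SE 0.84, adjusted p = 0.964 by limma). None of the 6 Sox rows tested was called, beside 0.00902% of all rows, so the smaller posterior step of Sox9 was not separated from the anterior one after adjustment.

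**Figure D2:**
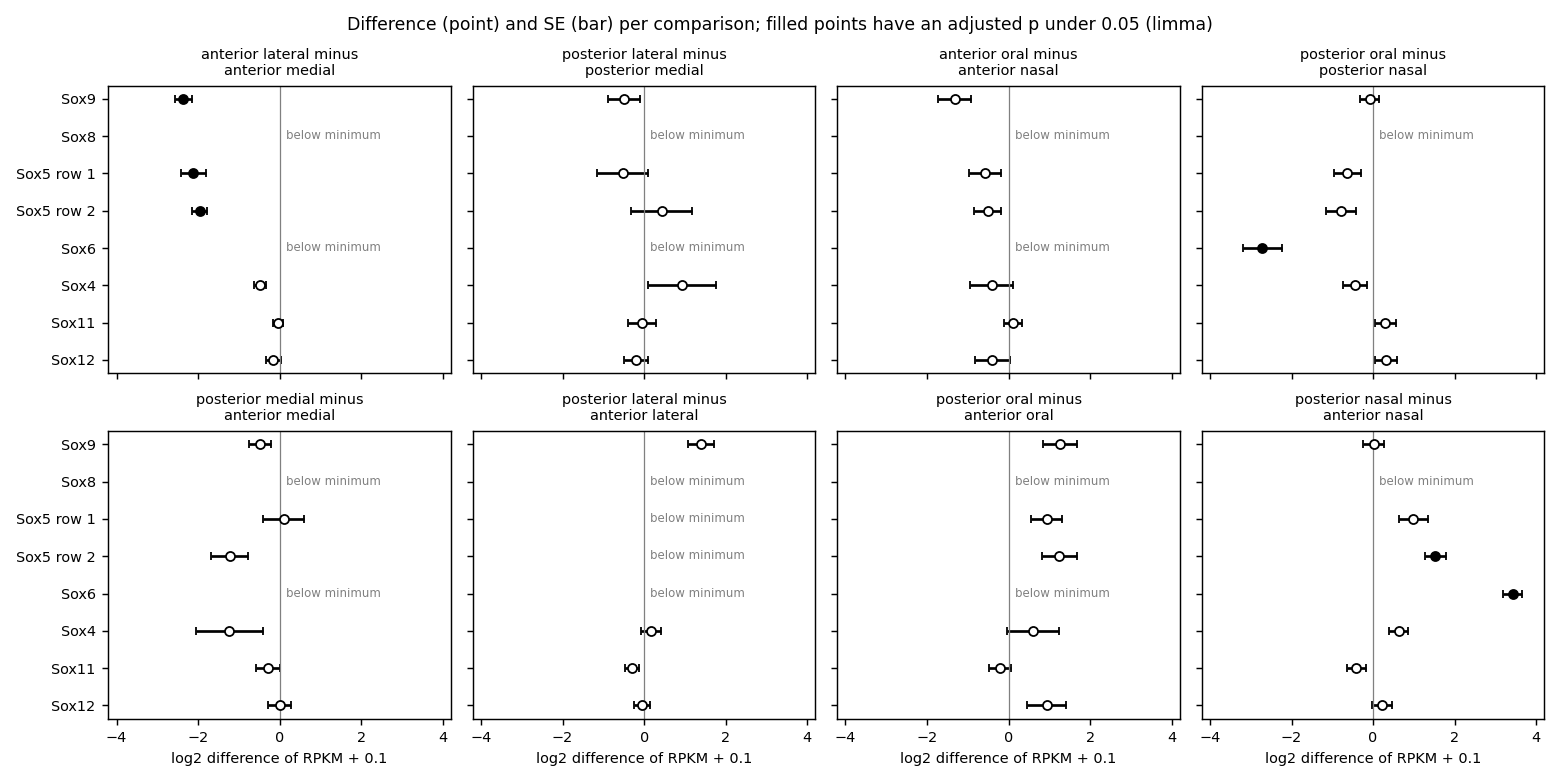
Log2 difference of RPKM + 0.1 (horizontal axis) for each Sox row (vertical axis) in 8 comparisons, named above each panel as first minus second; points are estimates, bars are SE, filled points have an adjusted p under 0.05 by limma, and rows under the minimum level are marked. Filled points are Sox9 (-2.36) and the Sox5 rows (-2.12 and -1.96) in anterior lateral minus medial, Sox6 (-2.71) in posterior oral minus nasal, and Sox6 (3.42) and Sox5 row 2 (1.53) in posterior minus anterior nasal palate.

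Anterior oral palate had less Sox9 than anterior nasal palate in every library. The oral libraries held 12.1, 19.3 and 34.4 RPKM and the nasal libraries 35.6, 70.7, 53.3 and 48.0 RPKM. The highest oral value was just under the lowest nasal value. Sox9 was 2.51-fold lower orally (log2 difference oral minus nasal -1.33, SE 0.39, unadjusted P = 0.00942), which passed the study's pair of thresholds, P under 0.05 with more than a 2-fold change, when P is taken without adjustment, as 1.44% of rows did. It did not pass after adjustment (adjusted p = 0.926 by limma), and no row of 10684 did (0% called, 318 with an unadjusted P under 0.05). Groups did not overlap in 3.67% of all rows. Sox5 row 1 (-0.58, SE 0.39), Sox5 row 2 (-0.51, SE 0.33), Sox4 (-0.42, SE 0.54) and Sox12 (-0.40, SE 0.43) also had lower means orally, and Sox11 did not (0.10, SE 0.22), all with overlapping groups. Schwann and glial markers summed to 47.1 to 69.6 RPKM orally and 10.5 to 27.5 RPKM nasally, and their part in the Sox9 difference was not tested.

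Oral and nasal libraries shared sequencing runs, so the anterior difference could be read within each. Sox9 differed by -0.48 in the run with oral replicate 3 and nasal replicate 4, by -2.05 in the run with oral replicate 1 and nasal replicates 1 and 2, and by -1.46 in the run with oral replicate 2 and nasal replicate 3. It was lower orally in all 3 runs. Without oral replicate 1, the library that stood apart, the pooled difference was -0.96, and without oral replicate 3 it was -1.72.

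Sox6 marked posterior nasal palate. Its 3 posterior nasal libraries read 25.2, 23.2 and 31.5 RPKM and its 3 posterior oral libraries 8.98, 2.08 and 3.23 RPKM. Posterior lateral libraries came next with 1.89, 14.48 and 10.1 RPKM, and posterior medial libraries were lowest with 1.91, 0 and 0.422 RPKM. None of the 13 anterior libraries exceeded 3.67 RPKM, and 6 of the 25 libraries reached 5 RPKM: all 3 posterior nasal, 2 posterior lateral and 1 posterior oral. The posterior nasal values lay above every other value in the series.

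Posterior oral palate had 6.56-fold less Sox6 than posterior nasal palate (log2 difference oral minus nasal -2.71, SE 0.47, adjusted p = 0.0383 by limma). It was the only call among the 7 Sox rows tested, beside 1.25% of all 10586 rows, and 11.8% of all rows had groups that did not overlap. Of the posterior oral libraries only replicate 1 (8.98 RPKM) reached 5 RPKM. Sox6 therefore entered this test through the nasal libraries, where it was high. The call was near the threshold. The adjusted p by limma ranged from 0.0221 to 0.279 over the other settings and from 0.00532 to 0.195 when single libraries were left out, and without posterior oral replicate 2 or 3 or any posterior nasal library it missed the threshold. The difference itself kept to -3.30 to -2.27 in those fits and was -1.48 and -3.11 within the 2 runs that held both compartments. With the replicate number as a block it missed the threshold (adjusted p = 0.0524 by limma).

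The other Sox genes showed no such step in posterior palate. Sox9 read 56.8, 49.8 and 38.8 RPKM orally and 61.4, 45.6 and 47.0 RPKM nasally (-0.09, SE 0.24). Sox5 row 2 read 15.1, 8.07 and 5.47 RPKM orally and 18.8, 14.3 and 13.1 RPKM nasally, with groups that overlapped (-0.79, SE 0.36, adjusted p = 0.684 by limma). Sox5 row 1 differed by -0.63 (SE 0.34), Sox4 by -0.44 (SE 0.30), Sox11 by 0.30 (SE 0.26) and Sox12 by 0.32 (SE 0.26). The oral-nasal difference of Sox9, anterior less posterior, was -1.24 (SE 0.49, unadjusted P = 0.0271), and that of Sox6 was 2.24 (SE 0.74, unadjusted P = 0.0104, adjusted p = 0.823 by limma). None of the 7 Sox rows was called in that test, beside 0.0350% of all rows.

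**Figure D3:**
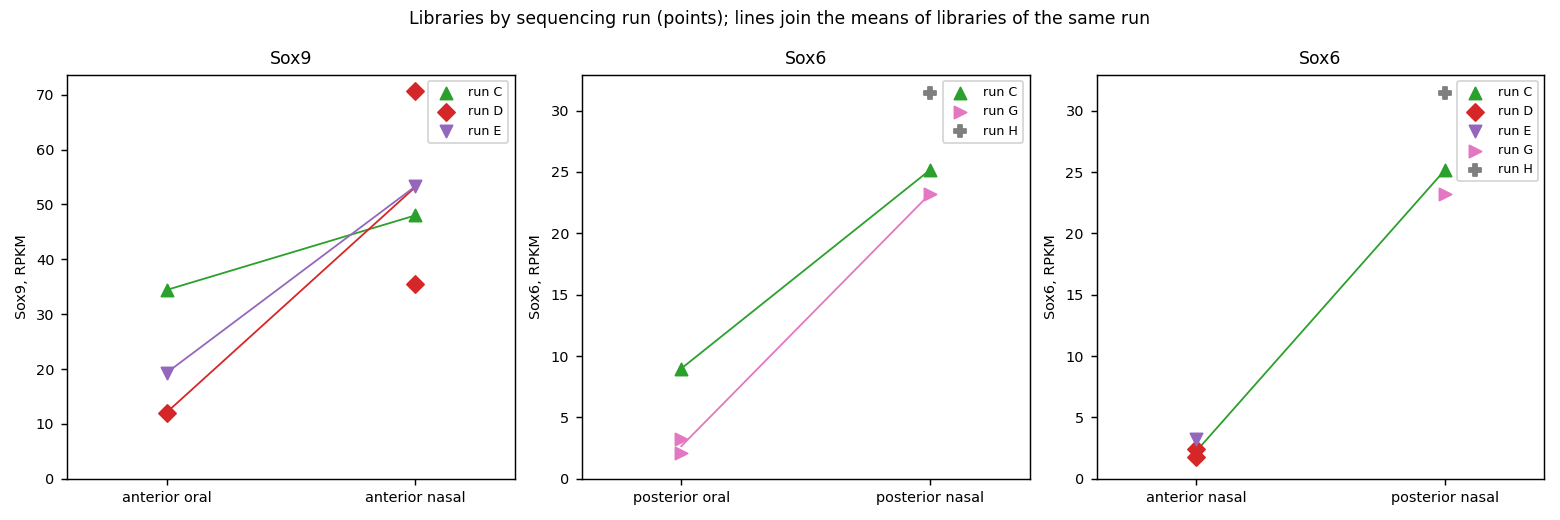
RPKM (vertical axis, linear from 0) of Sox9 in anterior oral and nasal libraries, of Sox6 in posterior oral and nasal libraries and of Sox6 in anterior and posterior nasal libraries; marker shape and colour give the sequencing run, and lines join the means of libraries of the same run. Each line rises from left to right, for Sox9 by 0.48 to 2.05 and for posterior Sox6 by 1.48 to 3.11 on the log2 scale.

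In the posterior oral-nasal comparison 7 of 9 tested bone rows were called, all lower orally, and the list's median log2 difference was -2.35 against -0.01 over all rows. Ibsp, a bone matrix sialoprotein, averaged 5.47 RPKM orally and 168 RPKM nasally (-6.22, adjusted p = 0.0284 by limma), and Sp7, the osteoblast factor osterix, averaged 9.57 and 82.8 RPKM (-3.08, adjusted p = 0.00460 by limma). Panx3 (-5.21) and Smpd3 (-3.84) were the other large differences. Of 10 cartilage rows 1 was called, Acan (0.941 against 9.05 RPKM, -3.23, adjusted p = 0.0149 by limma), with a list median of -0.69. Of 6 signalling rows 3 were called, all lower orally: Runx3, Fgfr3, a growth factor receptor of growth plate and bone, and Wwp2. Among other Sox genes Sox7, an endothelial gene, was higher orally (14.6 against 6.10 RPKM, 1.25, adjusted p = 0.0374 by limma). With any single library left out that still allowed a test, Sox7 (adjusted p = 0.0742 to 0.241 by limma), Wwp2 (0.0662 to 0.203) and Runx2 (0.0649 to 0.264) lost their calls, and Ibsp, Alpl, Dlx5, Acan and Fgfr3 lost theirs in at least 1 such fit. Acan, Panx3, Smpd3, Runx3 and Fgfr3 reached 5 RPKM in nasal libraries only.

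Endothelial and glial markers also differed between these compartments. Summed RPKM of 7 endothelial markers was 134 to 191 in posterior oral and 60.6 to 98.1 in posterior nasal libraries, and 7 Schwann and glial markers summed to 34.1 to 45.2 and 12.4 to 19.4 RPKM. Of 5 chondrocyte markers the sums were 35.1 to 60.6 and 53.6 to 87.8 RPKM, which overlapped. The neuronal gene Nefm and the epithelial gene Krt18 were called lower orally, and Krt18 lost its call whichever library was left out that still allowed a test, and Nefm in at least 1 such fit. Both reached 5 RPKM in nasal libraries only. Neuronal markers summed to 14.47 to 19.6 RPKM orally and 24.4 to 56.8 RPKM nasally. The part of these cell types in the Sox6 difference was not tested.

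Pooling all posterior and all anterior libraries gave no call among 6 Sox rows tested at 10 RPKM in at least 6 libraries, beside 3.32% of all rows. Sox5 row 1 averaged 14.8 RPKM posteriorly and 8.55 RPKM anteriorly (log2 difference posterior minus anterior 0.89, SE 0.32, adjusted p = 0.158 by limma), and Sox11 averaged 43.9 and 52.9 RPKM (-0.29, SE 0.11, adjusted p = 0.181 by limma). Sox9 differed by 0.48 (SE 0.32), Sox5 row 2 by 0.66 (SE 0.35), Sox12 by 0.27 (SE 0.17) and Sox4 by 0.04 (SE 0.30). Sox6 averaged 10.2 RPKM posteriorly and 2.08 RPKM anteriorly but reached the minimum in too few libraries. Col2a1, the main cartilage collagen, was called at 31.3 against 14.6 RPKM (1.199, adjusted p = 0.00374 by limma). Pth1r (0.79, adjusted p = 0.0111 by limma) and Col1a1 (0.46, adjusted p = 0.0319 by limma) were also called higher posteriorly. The mesenchyme marker Prrx1 was called lower (-0.69, adjusted p = 0.0236 by limma). Col1a1 lost its call in at least 1 fit with a single library left out.

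The pooled values average over compartments, and for some Sox rows the compartment estimates had opposite signs. Each compartment was therefore also compared alone, a comparison added after the values were seen. In nasal palate Sox6 was 10.7-fold higher posteriorly (26.6 against 2.42 RPKM, log2 difference 3.42, SE 0.24, adjusted p = 0.000405 by limma). Its 4 anterior nasal libraries read 1.80, 2.45, 3.22 and 2.23 RPKM, far under the posterior ones. Since none of them reached 5 RPKM, Sox6 entered this test only through the posterior libraries where it was high. Sox5 row 2, at 3.78, 7.06, 6.13 and 4.53 RPKM in anterior nasal libraries, was 2.88-fold higher posteriorly (1.53, SE 0.26, adjusted p = 0.0218 by limma). These were 2 calls among 7 Sox rows tested, beside 2.21% of all rows, whose median difference was 0.12. The groups also did not overlap for Sox5 row 1 (0.99, SE 0.36, adjusted p = 0.208 by limma) and Sox4 (0.62, SE 0.23, adjusted p = 0.205 by limma), as held for 20.3% of all rows.

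Sox9 showed no such rise in nasal palate, with means of 51.3 and 51.9 RPKM (0.01, SE 0.26). For Sox6, leaving out any anterior nasal library gave 3.30 to 3.56 with adjusted p up to 0.00205 by limma, and without any posterior nasal library fewer than 3 libraries reached the minimum and no test was made. Sox5 row 2 missed the threshold without any posterior nasal library (adjusted p up to 0.112 by limma). Within the shared run the difference was 3.44 for Sox6 and 2.03 for Sox5 row 2, and with run as a factor neither was called (adjusted p = 0.0722 and 0.236 by limma). Without the libraries that carry a colony name in their alignments, Sox6 was under the minimum, and without the minimum it differed by 3.43 and was not called (adjusted p = 0.141 by limma). Sox5 row 2 then differed by 1.31 and was not called either (adjusted p = 0.149 by limma).

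Some cartilage genes and most tested bone genes were also higher in posterior than in anterior nasal palate. Of 12 tested cartilage rows 3 were called, all higher posteriorly: Col9a1 (2.46), Lect1 (1.90) and Col9a3 (1.404). Of 9 bone rows 5 were called, all higher, with Panx3 at 4.81, Ibsp at 4.197 and Sp7 at 4.05. Among signalling genes Fgfr3, Wwp2 and Pth1r were higher and Pthlh, the ligand of Pth1r, was lower posteriorly (0.907 against 6.12 RPKM, -2.58). Medians were 1.01 for the cartilage list and 1.60 for the bone list, against 0.12 over all rows. The neuronal gene Nefl was called higher posteriorly, and epithelial markers summed to 26.1 to 47.2 RPKM posteriorly and 47.7 to 120.4 RPKM anteriorly. Chondrocyte markers summed to 53.6 to 87.8 RPKM posteriorly and 30.3 to 53.2 RPKM anteriorly. Col9a1, Panx3, Smpd3 and Fgfr3 reached 5 RPKM in posterior libraries only, and Pthlh in anterior libraries only. The part of these cell types in the nasal Sox differences was not tested.

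In lateral palate Sox9 was higher in each posterior library than in each anterior one (1.39, SE 0.31, adjusted p = 0.119 by limma). With single libraries left out the difference ranged from 1.06 to 1.71 and the adjusted p from 0.0224 to 0.487 by limma. The lowest adjusted p came from the fit without posterior lateral replicate 1, where the difference was 1.71. None of the 4 Sox rows tested was called, beside 1.39% of all rows. Sox6 and Sox5 row 1 did not overlap either, but were under the minimum. Sox11 was lower in each posterior lateral library (36.2 to 52.3 RPKM) than in each anterior one (54.0 to 59.3 RPKM; -0.31, SE 0.17, adjusted p = 0.592 by limma). The groups did not overlap in 18.9% of all rows tested. Within the run that held anterior lateral replicate 3 and posterior lateral replicates 2 and 3, Sox9 differed by 1.84, Sox6 by 3.47 and the Sox5 rows by 2.15 and 1.95. Col2a1 was called in this compartment (27.5 against 8.94 RPKM, 1.61, adjusted p = 0.0104 by limma). Epithelial markers summed to 15.1 to 22.01 RPKM in posterior lateral and 33.8 to 55.04 RPKM in anterior lateral libraries, and neuronal markers to 16.4 to 26.8 RPKM and 5.18 to 11.04 RPKM. Chondrocyte markers summed to 41.1 to 42.5 RPKM and 15.7 to 18.95 RPKM, and Schwann and glial markers to 18.6 to 28.2 RPKM and 33.8 to 43.0 RPKM. The part of these cell types was not tested.

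In oral palate Sox9 (1.25, SE 0.41), Sox5 row 2 (1.25, SE 0.44) and Sox5 row 1 (0.93, SE 0.38) were above the anterior values in every posterior library. None of the 6 Sox rows tested was called (adjusted p = 0.858 for each of the 3 by limma), beside 0.179% of all rows, and groups did not overlap in 8.26% of all rows. Neuronal markers summed to 14.47 to 19.6 RPKM in posterior oral and 5.06 to 12.2 RPKM in anterior oral libraries, and macrophage markers to 37.05 to 53.5 and 28.8 to 32.7 RPKM. Epithelial markers summed to 18.5 to 27.9 and 31.8 to 67.4 RPKM, and Schwann and glial markers to 34.1 to 45.2 and 47.1 to 69.6 RPKM. The part of these cell types was not tested. In medial palate the direction of Sox9 and Sox5 row 2 was the other way. Sox9 was lower in each posterior medial library than in each anterior medial one (-0.48, SE 0.28), as was Sox5 row 2 (-1.23, SE 0.45), and none of 6 Sox rows was called, beside 0.106% of all rows. Groups did not overlap in 11.9% of all rows tested there. Posterior medial replicate 2, which stood apart, was the lowest of its compartment for both. These comparisons use the same libraries as the pooled one and as each other's medial-lateral and oral-nasal steps.

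**Figure D4:**
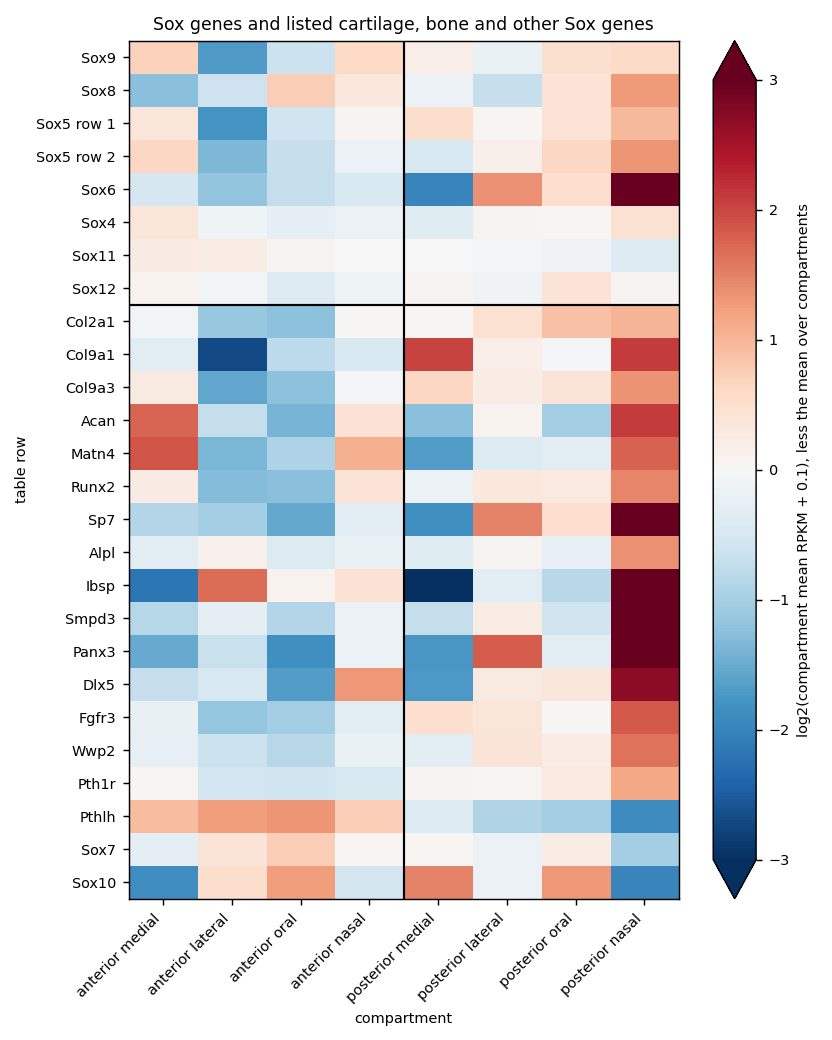
Compartment pattern of the 8 Sox rows (above the line) and of selected cartilage, bone, signalling and other Sox genes (below), chosen after their values were seen; colour is log2 of the compartment mean RPKM + 0.1 less the mean over the 8 compartments (horizontal axis), with values past 3 or -3 drawn at the end of the scale. Sox6, Sp7 and Panx3 share their highest value in posterior nasal palate, Sox9 is lowest in anterior lateral palate, and the Sox4, Sox11 and Sox12 rows are pale.

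The SoxC genes had the smallest ratios between compartment means. Sox11 stayed between 26.8 and 63.3 RPKM in the 25 libraries, with a median of 49.4 RPKM and 759 to 2731 reads behind each value. Its compartment means ran from 57.6 ± 6.06 RPKM in anterior medial to 36.7 ± 9.22 RPKM in posterior nasal palate (SD, n = 3 each). Sox12 stayed between 8.25 and 43.6 RPKM, with 60 to 870 reads, and Sox4 between 2.11 and 24.9 RPKM. The low ends came from the libraries that stood apart: 8.25 RPKM of Sox12 and 3.37 RPKM of Sox4 in anterior oral replicate 1, and 2.11 RPKM of Sox4 in posterior medial replicate 2. In the latter, Sox11 read 63.0 RPKM, the highest posterior value.

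Sox8 was close to the detection limit. Its median was 0.742 RPKM, 1 library was at 0 and 7 of 25 exceeded 1 RPKM. The highest value, 3.42 RPKM, was in posterior nasal replicate 1, and the other posterior nasal libraries read 1.36 and 0.901 RPKM. A single read on a gene of 2000 bases is worth 0.0763 to 0.305 RPKM at these depths, so values near the median rest on few reads. The highest value came from a deep library, of 6071797 counted reads, and rests on more.

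Each Sox row was matched with the rows whose compartment means followed it most closely, by Pearson correlation of log2 means over the 8 compartments among 11913 rows. For Sox6 these were Sp7 (0.98), Rab3a (0.98) and Cmya5 (0.97). For Sox9 they were Hs3st3b1 (0.97), Mcat and Rp9 (0.95 each), and for Sox5 row 2 Smad9 (0.97), Arl3 and Polr2d (0.95 each). For Sox5 row 1 they were Spr (0.96), Mrto4 and Sorcs3 (0.95 each). Sox11 was matched by Lphn3 (0.97), Col4a1 (0.96) and Lpar1 (0.95), Sox12 by Rexo1 (0.97), Dcakd and 1810008A18Rik (0.96 each), and Sox4 by Nsun5, Tceb3 (0.98 each) and Rnf8 (0.97). With 8 points and so many rows, high values arise readily, and the points share libraries and runs. The same 25 libraries make up those means, so their correlations are no separate check. Over the single libraries Sox6 and Sp7 had 0.94, Sox9 and Hs3st3b1 0.84 and Sox5 row 2 and Smad9 0.84, whereas Sox5 row 1 and Spr had 0.22 and Sox11 and Lphn3 0.23.

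Among the Sox genes themselves, Sox9 followed Sox5 row 1 most closely (0.92 over compartments, 0.78 over libraries) and Sox5 row 2 at 0.81 and 0.77. Sox6 had 0.80 over compartments and 0.61 over libraries with Sox4, 0.74 and 0.75 with Sox5 row 2, and 0.31 and 0.36 with Sox9. Sox11 had negative correlations with all 6 other Sox genes over the compartments. Over compartments, the correlation with Col2a1 was 0.80 for Sox5 row 1, 0.79 for Sox5 row 2, 0.74 for Sox9, 0.72 for Sox12, 0.60 for Sox6, 0.48 for Sox4, 0.20 for Sox8 and -0.77 for Sox11. With the osteoblast regulator Runx2 it was 0.90 for Sox5 row 2, 0.86 for Sox5 row 1, 0.84 for Sox9 and 0.68 for Sox6. The Runx2 values were 0.60 for Sox4, 0.55 for Sox12, 0.27 for Sox8 and -0.74 for Sox11. The correlation with Acan over compartments was highest for Sox4 (0.83), followed by Sox5 row 2 (0.73), Sox6 (0.64), Sox9 (0.50) and Sox5 row 1 (0.45). Over libraries the order differed, with 0.74 for Sox5 row 2, 0.67 for Sox6, 0.55 for Sox4, 0.48 for Sox9 and 0.34 for Sox5 row 1.

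**Figure D5:**
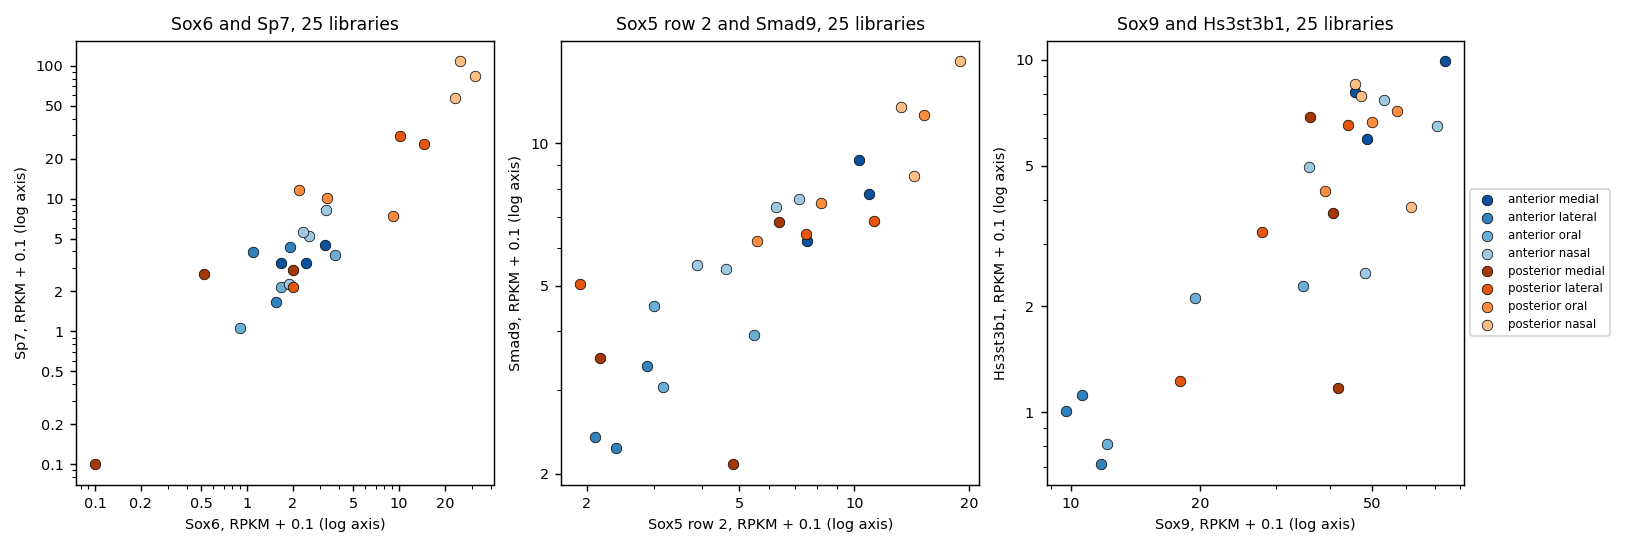
RPKM + 0.1 of Sox6, Sox5 row 2 and Sox9 (horizontal axes, log) against the row most like each in compartment pattern, Sp7, Smad9 and Hs3st3b1 (vertical axes, log); each point is 1 of 25 libraries, blue shades anterior and orange shades posterior. The 3 posterior nasal libraries are at the upper right in the Sox6 and Sp7 panel, where the correlation over libraries was 0.94.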

How the data were processed

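RNA-seq was analysed for 25 laser captured samples, grouped by the labelled compartment. RNA had been amplified and tagmented, and per the study's methods multiply aligned and duplicate reads were removed from the single-end 50 base reads before counting. The labels name TopHat and mm9, and the methods GeneSpring 12.6.1. The deposited table holds RPKM per gene row made by the authors, so no count model was used. From it log2(RPKM + 0.1) was tested with limma 3.58.1 in R 4.3.3 (two-sided, Benjamini-Hochberg over all rows tested, called at an adjusted p under 0.05). Rows needed 5 RPKM in 3 compared samples, or 10 RPKM in 6 for the pooled comparison. Scripts were tested on simulated data. Depth was inferred from RPKM steps of single-stretch rows (whole reads within 0.05), and runs from alignment names. Replicate numbers are the labels' own. Anterior oral and nasal libraries of the same number had positive correlations (0.24, 0.21 and 0.13), so the block was read there, and it made no call. Anterior oral replicate 2 and anterior nasal replicate 3, which shared a run but not a number, had a higher correlation (0.50). Same-numbered posterior lateral and medial libraries also had positive correlations (0.23, 0.036 and 0.28). Nothing states that libraries came from separate animals beyond the methods' term biological triplicates, so p-values measure the spread between these libraries. The 7 genes were named by rule as members, and list genes by being called, at most 4 per direction. Members and lists were chosen with earlier results of these data known. Snorc and Hbb-b2 had no matching row, and Spp1 had 2 rows. Base stretches and encoded residues came from GENCODE M21 transcripts, used for sequence only. Of the listed epithelial markers, 1 is not reported here and was left out of the marker sums.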

Additional observations from a re-analysis of the deposited data

Results flagged for a closer look

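The posterior minus anterior difference of 2 Sox rows had opposite signs in different compartments, with every library of each group on its side, in pairs of compartments for which no interaction was fitted. Sox9 differed by -0.48 in medial and by 1.25 in oral palate on the log2 scale. Sox5 row 2 differed by -1.23 in medial palate, by 1.25 in oral palate and by 1.53 in nasal palate. Sox5 row 1 did not show this, as its groups overlapped in medial palate, with means of 14.8 RPKM posteriorly and 13.1 RPKM anteriorly. The difference between these compartments was not tested. The share of all rows with such opposite signs was not counted.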

How the results depend on the processing

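Of 1008 Sox values recomputed under an alternative, 950 kept their direction (or have none, as the test across compartments) and 58, none of them called, reversed; causes were not tested. Sox rows called between anterior lateral and medial palate fell from 3 to 1 in a fit of all 25 libraries and to 0 with run added, and ranged from 1 to 3 when single libraries were left out. The posterior oral-nasal count fell from 1 to 0 with a replicate block, without the filter, in the fits of all 25 libraries with and without run, with run as a factor in the pair and without the 6 libraries with colony names (where Sox6 was under the minimum and differed by -3.33, adjusted p = 0.149 by limma, without the filter), and ranged from 0 to 1 with single libraries left out. The pooled posterior-anterior count rose from 0 to 1 by quantile normalization (Sox11) and in the fit of all 25 (Sox5 row 1), and was 2 in nasal palate alone. The count across compartments fell from 4 to 2 with the replicate block (Sox6 and Sox9) and to 1 with run (Sox6). The block changed no other call. Other same-numbered libraries had correlations from -0.15 to 0.42. Of these, replicates 1 and replicates 2 of posterior oral and nasal palate also shared a run.

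Reversed log2 differences with run added were 0.036 for Sox12 and 0.35 for Sox4 (anterior lateral minus medial), 0.23 for Sox12 (posterior lateral minus medial), -0.38 for Sox4 (posterior minus anterior), -0.20 for Sox12 (medial-lateral interaction) and -0.20 for Sox5 row 1 (oral-nasal interaction). Quantile normalization gave 0.034 and 0.12 for Sox11 (anterior and posterior lateral minus medial), -0.018 for Sox5 row 2 (posterior lateral minus medial) and -0.080 for Sox11 (medial-lateral interaction). The replicate block gave -0.085 for Sox4 (oral-nasal interaction). For posterior minus anterior, median centring gave -0.0087 for Sox4. Without the 6 libraries Sox4 was -0.13 there and Sox12 was 0.11 (posterior lateral minus medial). Medial palate alone gave -0.00029 for Sox12, -1.23 for Sox5 row 2, -0.48 for Sox9 and -1.23 for Sox4, and lateral palate alone -0.051 for Sox12.

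With single libraries left out, ranges that crossed 0 were -0.27 to 0.018 (Sox12) and -0.11 to 0.040 (Sox11) for anterior lateral minus medial, -0.022 to 1.18 (Sox5 row 2), -0.29 to 0.16 (Sox11) and -0.0050 to 1.62 (Sox4) for posterior lateral minus medial, -0.76 to 0.12 (Sox12) and -0.86 to 0.33 (Sox4) for anterior oral minus nasal, -0.21 to 0.065 (Sox9) for posterior oral minus nasal and -0.12 to 0.28 (Sox4) for posterior minus anterior. For the medial-lateral interaction they were -0.13 to 0.22 (Sox12) and -0.19 to 0.26 (Sox11), and for the oral-nasal interaction -0.24 to 0.42 (Sox5 row 1), -0.055 to 0.67 (Sox5 row 2), -0.36 to 0.015 (Sox11) and -0.41 to 0.77 (Sox4). Alternatives by run, by single compartment and without the doubted libraries were chosen after seeing the data. At 5 RPKM a gene of 2000 bases rests on 16.4 to 65.6 reads, a counting error of 12.4% to 24.7%.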
